A study of Mus musculus with 6 samples.

Results

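The 10 genes C1qa, C1qb, C1qc, Apoe, Trem2, Cx3cr1, Tmem119, Mrc1, Folr2 and Ms4a7, which are widely used to describe complement-producing and resident macrophages, were followed across the cells of mouse kidney and mouse mammary tumor. The genes were taken by symbol, and all 10 of 10 were found among the 31053 genes measured in both tissues. The single cells came from a comparison of a microfluidic dissociation platform with conventional digestion, read by droplet-based single-cell RNA sequencing that counts unique molecular identifiers (UMIs, 1 for each captured RNA molecule). There were 6 libraries, 3 per tissue and 1 per condition. Kidney came from 12 week old male C57BL/6 mice and carries no transgene that the labels name. The tumor came from 10 week old female MMTV-PyMT mice, in which the mouse mammary tumor virus promoter drives the polyoma middle T oncogene mainly in mammary epithelium. All tissue was minced and treated with type I collagenase. The control was digested for 60 min with agitation and then pipetted and vortexed. The platform cells were eluted from the digestion device as successive 15 min and 60 min intervals and passed once through the dissociation and filter device. In all groups, DNase treatment, red blood cell lysis and a sort of live (SytoxBlue-negative) cells followed. The 15 min and 60 min libraries of a tissue come from successive intervals of the same processing format. The study describes a single replicate for the sequencing and states that control and device conditions of a replicate used the same mouse, so the libraries of a tissue hold no variation between animals.

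C1qa, C1qb and C1qc encode the chains of C1q, the recognition molecule that starts the classical complement pathway, and macrophages are its main source in most tissues. Apoe encodes apolipoprotein E, a lipid carrier, and Trem2 encodes a receptor of lipid-loaded macrophages that binds lipids and lipoproteins. Cx3cr1 is the receptor for fractalkine and marks resident macrophages, microglia and some monocytes, while Tmem119 is best known as a microglial membrane protein. Mrc1 encodes the mannose receptor CD206 and Folr2 encodes folate receptor beta, both often seen on perivascular and other tissue-resident macrophages. Ms4a7 encodes a membrane-spanning protein of the MS4A family that is found in macrophages.

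The C1q genes lie side by side on the minus strand of mouse chromosome 4 (GRCm38, GENCODE vM21). C1qb spans positions 136880129 to 136886187, C1qc 136889804 to 136893065 and C1qa 136895917 to 136898803, so that the 3 genes fit within 18675 bases with gaps of 3616 and 2851 bases. Mrc1 lies on chromosome 2 at 14229392 to 14332057 (plus strand) and Folr2 on chromosome 7 at 101839988 to 101857194 (minus strand). RefSeq (GRCm38.p6) windows from 250 bases before to 50 bases after a transcription start were at hand for 8 of the 10 genes, 12 windows in all. The windows of C1qb and C1qc are shown because the levels of these neighbours moved together in these data, and those of Mrc1 and Folr2 because the pair was often found in the same tumor cells. Capitals mark 4 motifs searched by their letters on both strands. The first was AGGAAG, which holds the core of many sites bound by the macrophage factor PU.1. The second was TGCTGA, searched by its letters alone. The remaining motifs were TATAAA and the shorter CCAAT, which are basal promoter boxes. The marked matches in these windows do not overlap each other. The C1qb window is chr4:136886151-136886450 and the C1qc window chr4:136892865-136893164, both minus strand. The Mrc1 window is chr2:14229164-14229463, plus strand. Folr2 has 2 annotated starts, with windows chr7:101857141-101857440 and chr7:101845282-101845581, minus strand.
C1qb: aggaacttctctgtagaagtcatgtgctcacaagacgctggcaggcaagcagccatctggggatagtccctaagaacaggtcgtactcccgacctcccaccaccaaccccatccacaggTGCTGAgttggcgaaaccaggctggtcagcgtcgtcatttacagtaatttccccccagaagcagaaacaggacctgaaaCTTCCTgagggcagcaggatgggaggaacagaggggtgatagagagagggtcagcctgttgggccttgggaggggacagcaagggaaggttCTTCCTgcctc
C1qc: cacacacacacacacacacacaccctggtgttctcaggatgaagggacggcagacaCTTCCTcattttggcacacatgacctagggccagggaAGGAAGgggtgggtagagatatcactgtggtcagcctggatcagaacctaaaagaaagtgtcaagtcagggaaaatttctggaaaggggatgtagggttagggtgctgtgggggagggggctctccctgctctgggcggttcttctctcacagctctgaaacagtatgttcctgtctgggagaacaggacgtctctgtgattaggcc
Mrc1: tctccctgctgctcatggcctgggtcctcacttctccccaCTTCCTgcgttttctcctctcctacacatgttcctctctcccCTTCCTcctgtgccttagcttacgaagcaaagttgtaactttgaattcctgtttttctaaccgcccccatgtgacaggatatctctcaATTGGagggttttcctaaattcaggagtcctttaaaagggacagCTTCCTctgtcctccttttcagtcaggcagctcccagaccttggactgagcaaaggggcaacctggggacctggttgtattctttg
Folr2 start 1: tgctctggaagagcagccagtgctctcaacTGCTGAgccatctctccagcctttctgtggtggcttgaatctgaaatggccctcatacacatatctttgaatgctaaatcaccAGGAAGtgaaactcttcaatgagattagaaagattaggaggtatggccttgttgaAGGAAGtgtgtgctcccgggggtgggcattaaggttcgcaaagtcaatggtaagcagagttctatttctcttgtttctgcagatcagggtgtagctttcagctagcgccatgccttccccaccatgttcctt
Folr2 start 2: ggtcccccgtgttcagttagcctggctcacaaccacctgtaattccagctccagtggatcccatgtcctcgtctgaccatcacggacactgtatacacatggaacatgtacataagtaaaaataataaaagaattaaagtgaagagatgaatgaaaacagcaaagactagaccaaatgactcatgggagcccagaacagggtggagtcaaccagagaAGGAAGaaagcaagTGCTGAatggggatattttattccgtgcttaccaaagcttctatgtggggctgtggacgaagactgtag
AGGAAG was found in 7 of the 12 windows of these genes and in 35.4% of all 32851 windows of this length. TGCTGA was found in 3 of the 12 windows, against 19.5% of all windows, TATAAA in 1 of 12, against 13.6%, and CCAAT in 4 of 12, against 37.4%. These matches describe the letters only.

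The deposited libraries held 8152 to 13719 cells and between 69691783 and 116998401 UMIs, and 5736 to 9936 cells per library were kept after filters on genes and mitochondrial UMIs. Cells were assigned to classes by marker genes that include none of the 10 genes. A macrophage-gated cell held UMIs of at least 3 of 5 macrophage markers, among them Adgre1, Csf1r, Cd68 and Fcgr1, and passed no other gate. The gate held 724, 100 and 1190 kidney cells in the control, 15 min and 60 min libraries, which is 12.3%, 1.19% and 12.0% of the kept cells, and 802, 872 and 1333 tumor cells, or 14.0%, 15.0% and 22.1%. Median depth in these cells was 7091, 5460 and 6198 UMIs in kidney and 12128, 9662 and 11950 UMIs in the tumor. The 15 min kidney library was dominated by proximal tubule cells (84.6% of kept cells), and its 100 macrophage-gated cells give the least precise values. Cells that passed a second gate were left out, which removed 25 to 195 cells per library from the macrophage gate. Between libraries of 1 tissue, 16 to 211 cell barcodes were shared, and the counts of genes given here were the same without those cells, an alternative added after the data were seen.

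Levels are given as CPM, the UMIs of a gene for every 1000000 UMIs summed over the cells of a class in a library. The method counts transcript ends, so levels are not divided by gene length. Intervals are exact 95% intervals (Poisson for levels, Clopper-Pearson for shares, conditional binomial for ratios) and cover counting error only. With 1 library per condition there is no replicate error, so no difference between conditions was tested and none can be separated from differences between libraries.

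Among classes of at least 50 cells, all 10 genes were highest in macrophage-gated cells in 5 of 6 libraries, against 4 to 7 other classes. The exception was Folr2 in the 15 min kidney library, where the 100 macrophage-gated cells held 0 UMIs, which allows a level of up to 5.34 CPM, and proximal tubule cells held 0.287 CPM. The 10 genes were chosen as macrophage genes and the gate rests on macrophage markers, so this count was largely set in advance. The share of all genes that were highest in this gate was not counted. How far the macrophage-gated cells stood above the next class differed widely between the genes. The smallest leads were those of Tmem119, 2.79-, 5.00- and 2.86-fold above endothelial cells in kidney and 2.08-fold above fibroblasts in the 60 min tumor library. A smaller class, the 32 stromal cells of the 60 min kidney library, held more Tmem119 (82.1 CPM) than the macrophage-gated cells. With graph clusters in place of gates, the marker score gave tumor cluster 8 the monocyte name, although its leading genes include the 3 C1q chains and none of the monocyte markers, and the name is not used here. Mrc1 and Folr2 were highest in that cluster, with Mrc1 at 453, 754 and 689 CPM against 31.5, 31.7 and 66.9 CPM in the clusters named macrophage, and Folr2 at 220, 492 and 293 CPM against 12.0, 12.8 and 14.7 CPM. Kidney Tmem119 was then highest in a stromal cluster in the control and 60 min libraries, at 27.2 and 27.6 CPM against 16.6 and 15.3 CPM.

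**Figure D1:**
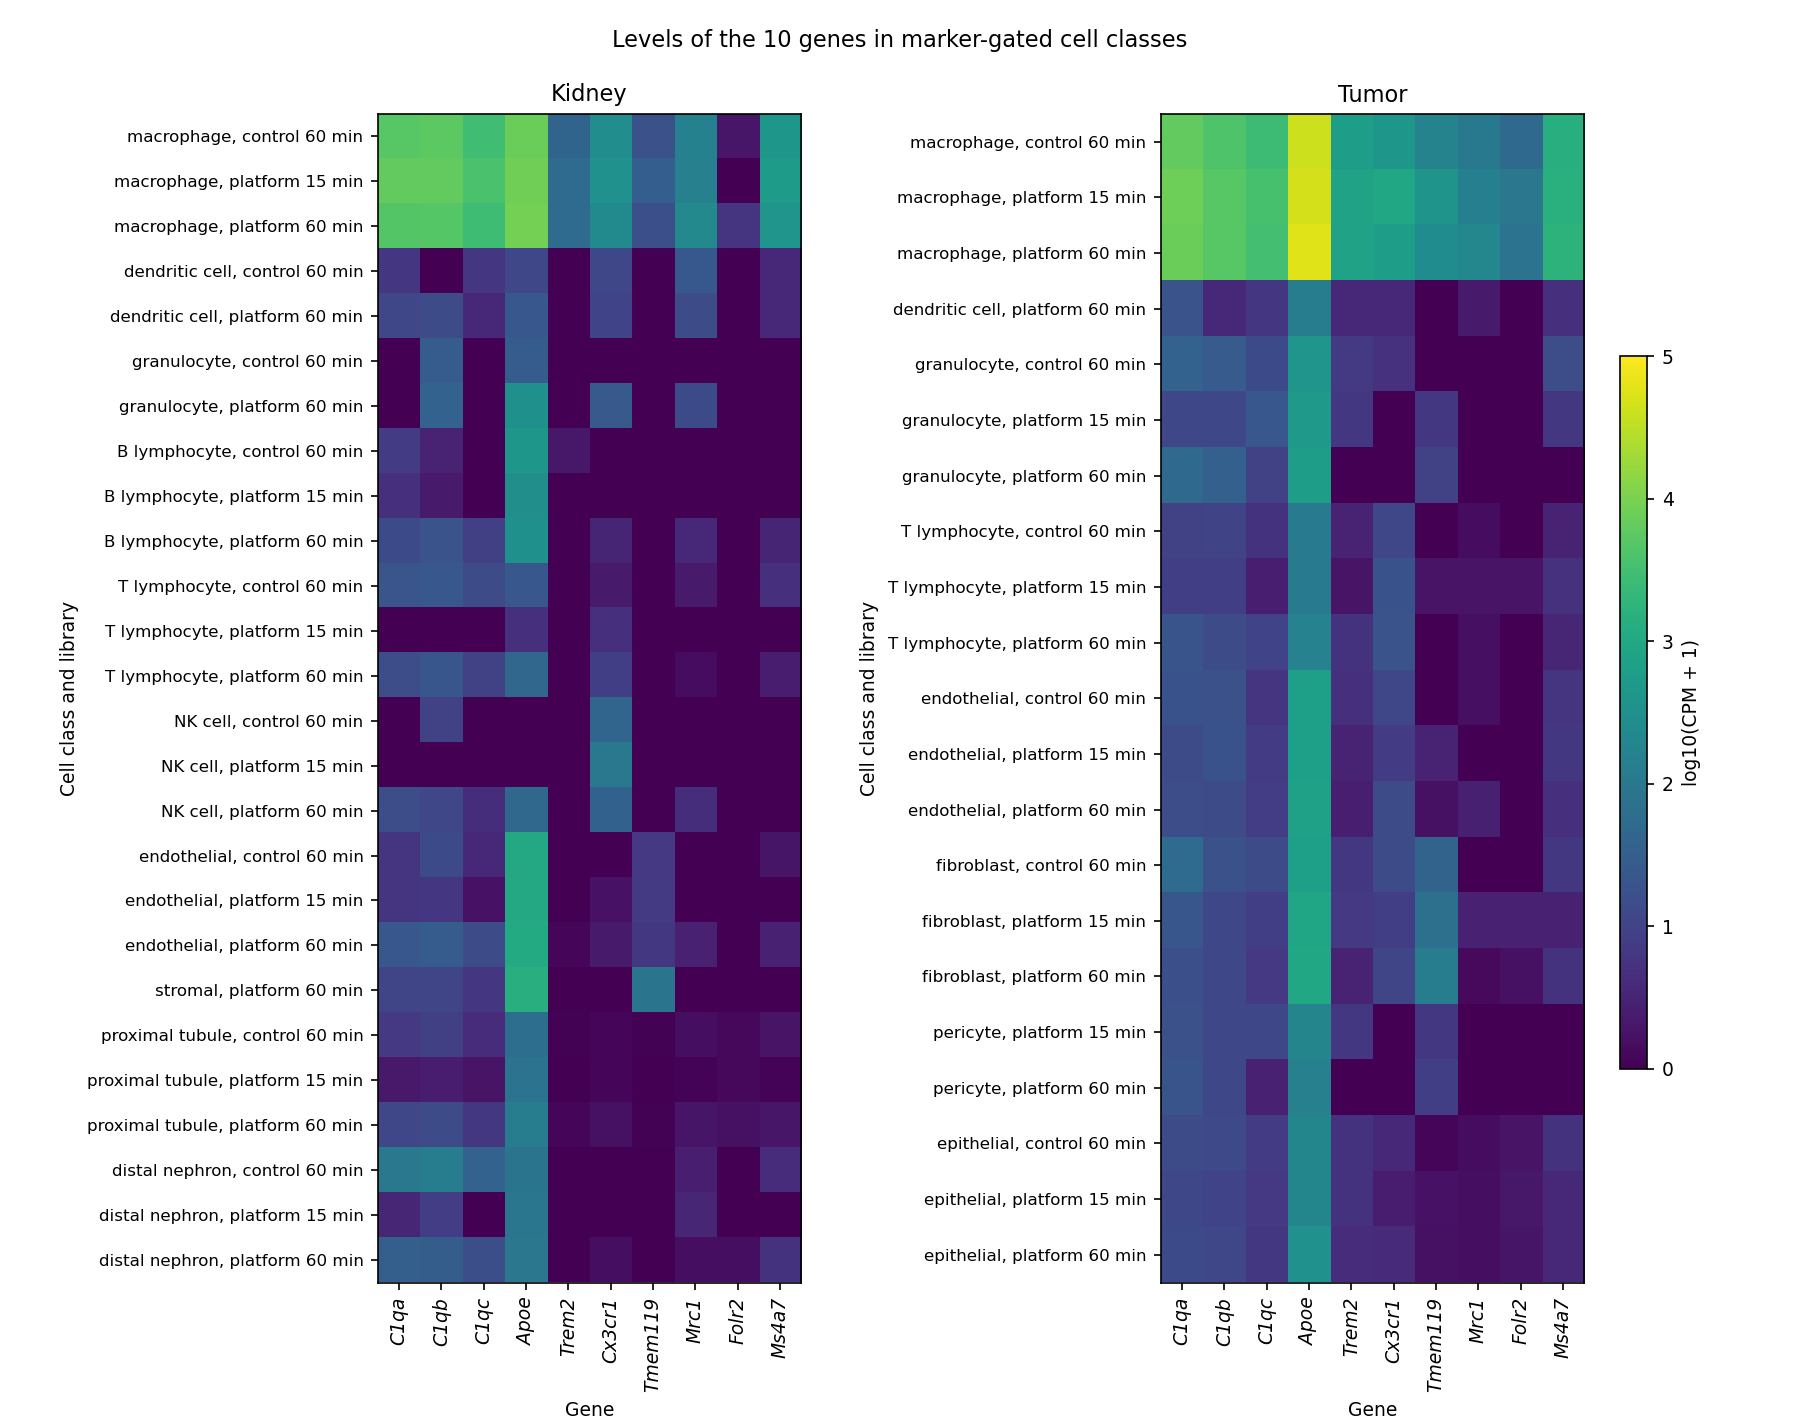
Level of each of the 10 genes (columns) in every marker-gated cell class of at least 20 cells in each library (rows), for kidney and tumor, as log10(CPM + 1). The macrophage rows at the top are the brightest in every column except kidney Folr2 at 15 min and kidney Tmem119, where the stromal row is higher (82.1 CPM), and Apoe is also raised in endothelial, stromal, fibroblast and B lymphocyte rows.

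The C1q chains were among the most uniform of the 10 genes, with UMIs in nearly every macrophage-gated cell. In kidney, C1qa stood at 5129 CPM (5067–5191) in the control, 6261 CPM (6055–6471) at 15 min and 4518 CPM (4470–4566) at 60 min. In the tumor it stood at 6219 CPM (6169–6268), 7784 CPM (7726–7843) and 7679 CPM (7636–7722). The kidney and tumor ranges overlapped, and in both tissues the 15 min library was the highest. C1qb ran at 5464, 6330 and 4730 CPM in kidney and at 4183, 5027 and 4974 CPM in the tumor. C1qc ran at 2948, 3701 and 2798 CPM in kidney and at 2709, 3452 and 3244 CPM in the tumor. The 3 genes kept the same order of libraries within each tissue. UMIs of C1qa were found in 96.0% to 98.3% of kidney and 94.8% to 96.9% of tumor macrophage-gated cells. The top 10% of cells by C1qa held only 13.1% to 18.2% of its UMIs across the 6 libraries.

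The proportions of the C1q transcripts differed more between the tissues than between dissociation conditions. C1qb UMIs per C1qa UMI were 1.07 (1.05–1.08), 1.01 (0.965–1.06) and 1.05 (1.03–1.06) in kidney macrophage-gated cells. In the tumor the same ratio was 0.673 (0.664–0.681), 0.646 (0.638–0.654) and 0.648 (0.642–0.653), below every kidney library. C1qc UMIs per C1qa UMI were 0.575 (0.563–0.586), 0.591 (0.560–0.624) and 0.619 (0.609–0.630) in kidney. In the tumor they were 0.436 (0.429–0.442), 0.443 (0.437–0.450) and 0.422 (0.418–0.427), again without overlap between the tissues. The 60 min interval lay above the control interval in kidney and below those of the control and 15 min libraries in the tumor. Tissue, strain, sex and age differ together in these libraries and cannot be told apart.

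Low levels of C1q were counted in other classes. In kidney proximal tubule cells C1qa was at 5.80, 1.2 and 10.4 CPM, with a UMI in 1.84%, 0.408% and 4.51% of cells. After each cell was thinned to 1000 UMIs it was found in 0.554%, 0.127% and 1.27% of these cells, against 94.7%, 94.0% and 93.9% of macrophage-gated cells. In tumor epithelial cells it was at 13.2, 10.9 and 12.0 CPM, with a UMI in 7.86%, 8.34% and 9.59% of cells and in 1.5%, 1.24% and 1.41% after thinning. Free RNA in droplets can give such counts in cells that do not express a gene, and these levels are not read as expression. The part of free RNA in them was not tested. The C1qb to C1qa ratio in tumor epithelial cells was 0.885 (0.766–1.02), 0.853 (0.740–0.983) and 0.887 (0.748–1.05), above the ratio in the macrophage-gated cells of the same libraries, and what underlies the offset was not tested. The control kidney library had 97.6 CPM of C1qa in its 118 distal nephron cells, and all 59 of those UMIs lay in 3 cells (2.54%).

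Apoe, the lipid carrier, differed widely between the tissues. In kidney macrophage-gated cells it stood at 7551 CPM (7476–7626), 8359 CPM (8122–8602) and 9013 CPM (8945–9081). In the tumor it stood at 42199 CPM (42070–42328), 48062 CPM (47916–48208) and 55869 CPM (55753–55985). Every tumor library was above every kidney library. The kidney cells were also less uniform. There, 84.0% to 88.3% of macrophage-gated cells held an Apoe UMI and the top 10% of cells held 45.3%, 35.8% and 42.2% of its UMIs, whereas 99.4% to 99.9% of tumor cells held one and the top 10% held 22.8%, 20.4% and 19.9%.

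Apoe was not confined to macrophages. Kidney endothelial cells, which line blood vessels, held 1023, 1045 and 1123 CPM, so that macrophage-gated cells were 7.38-, 8.0- and 8.03-fold higher. In the tumor the next class was endothelial cells in the control (677 CPM) and fibroblasts at 15 and 60 min (892 and 931 CPM), and macrophage-gated cells were 62.4-, 53.9- and 60.0-fold higher. Kidney B lymphocytes held 444 CPM (402–490), 300 CPM (263–341) and 325 CPM (299–353), above T lymphocytes at 21.3 CPM (12.4–34.1), 3.66 CPM (0.443–13.2) and 43.0 CPM (34.6–52.9). An Apoe UMI was found in 36.8%, 33.5% and 39.9% of B lymphocytes and in 4.76%, 2.0% and 16.5% of T lymphocytes, and after thinning in 20.6%, 17.1% and 19.2% against 2.04%, 0% and 2.31%. The B lymphocytes had the lower median depth, 3579 to 3626 UMIs against 5140 to 5384 UMIs.

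Trem2, the lipid-sensing receptor, was low in kidney and abundant in the tumor. Kidney macrophage-gated cells held 40.1 CPM (34.8–45.9), 55.2 CPM (37.5–78.3) and 54.9 CPM (49.7–60.4). Tumor macrophage-gated cells held 644 CPM (628–660), 764 CPM (746–783) and 743 CPM (729–756). The tissues did not overlap. A Trem2 UMI was found in 15.0% to 19.3% of kidney cells and in 91.4% to 94.8% of tumor cells, and in 3.19% to 5.00% against 42.8% to 48.2% after thinning to equal depth. Outside the macrophage gate no class of at least 50 cells exceeded 6.09 CPM in either tissue.

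Cx3cr1, the fractalkine receptor, was found in both tissues at less distant levels. It stood at 278 CPM (264–293), 331 CPM (285–382) and 247 CPM (236–258) in kidney. In the tumor it stood at 448 CPM (435–461) in the control, 1003 CPM (983–1025) at 15 min and 634 CPM (622–647) at 60 min. The lowest tumor library lay above the highest kidney library. Kidney NK cells, which also use this receptor, held 42.4 CPM (13.8–99.0), 99.4 CPM (55.6–164) and 35.3 CPM (17.0–65.0), but rest on 28, 37 and 68 cells. Kidney T lymphocytes held at most 7.64 CPM.

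Tmem119 was near the limit of detection in kidney and clear in the tumor. Kidney macrophage-gated cells held 16.1 CPM (12.9–20), 30.3 CPM (17.6–48.5) and 15.3 CPM (12.6–18.4), from 83, 17 and 116 UMIs. Tumor macrophage-gated cells held 173 CPM (165–182), 383 CPM (370–396) and 273 CPM (265–281). The tissues did not overlap. The transcript was also present in cells that build connective tissue. Tumor fibroblasts held 38.6 CPM (21.1–64.8), 69.4 CPM (48.8–95.6) and 131 CPM (119–145), from 36, 66 and 269 cells, and the macrophage-gated cells of the 60 min library were only 2.08-fold above them. In kidney, 32 stromal cells of the 60 min library held 82.1 CPM (46.9–133), above the 15.3 CPM of the macrophage-gated cells, and 37.5% of those stromal cells held a UMI. Kidney endothelial cells held 5.78, 6.06 and 5.36 CPM.

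Mrc1, the mannose receptor, was of similar level in the 2 tissues but differently spread over cells. It stood at 160 CPM (149–172), 148 CPM (118–183) and 223 CPM (213–234) in kidney and at 104 CPM (97.8–111), 145 CPM (137–153) and 206 CPM (199–214) in the tumor. The ranges overlapped, and the 60 min platform library was the highest in both tissues. In kidney, 44.0% to 57.4% of macrophage-gated cells held an Mrc1 UMI. In the tumor the share was 24.7%, 24.3% and 46.5%, in deeper cells, and the top 10% of cells held 79.4%, 85.6% and 59.1% of the UMIs.

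Folr2, folate receptor beta, was rare in kidney and held by a minority of the tumor cells. Kidney macrophage-gated cells held 5, 0 and 37 UMIs, or 0.972 CPM (0.316–2.27), 0 CPM and 4.88 CPM (3.44–6.73). Of the 37 UMIs in the 60 min library, 14 came from a single cell. Tumor macrophage-gated cells held 51.2 CPM (46.8–55.9), 95.2 CPM (88.8–102) and 79.7 CPM (75.4–84.2). A Folr2 UMI was found in 12.0%, 12.2% and 18.9% of the tumor cells, and the top 10% of cells held 96.8%, 97.7% and 87.1% of its UMIs. Ms4a7, by contrast, was broad. It stood at 449 CPM (431–468), 586 CPM (524–652) and 400 CPM (386–415) in kidney and at 1421 CPM (1397–1445), 1507 CPM (1482–1533) and 1723 CPM (1703–1744) in the tumor, with a UMI in 70.0% to 76.7% of kidney and 91.5% to 94.5% of tumor cells.

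**Figure D2:**
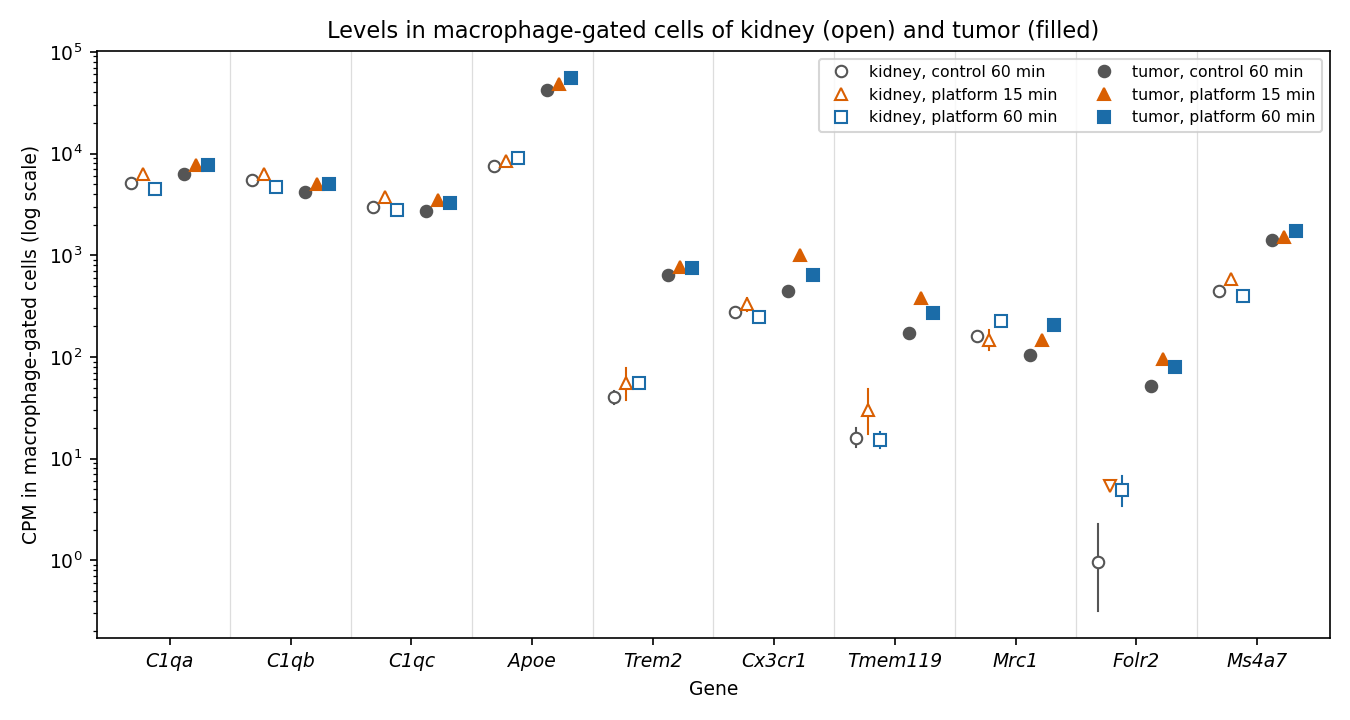
Level of each gene in macrophage-gated cells of the 6 libraries, in CPM on a log axis, with exact 95% Poisson bars for counting error. The open downward triangle for Folr2 marks the 5.34 CPM limit of the 15 min kidney library with 0 UMIs, and tumor points lie above all kidney points for Apoe, Trem2, Cx3cr1, Tmem119, Folr2 and Ms4a7 but not for the C1q chains or Mrc1.

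Between the tissues, 5 of the 10 genes were at least 2-fold higher in tumor than in kidney macrophage-gated cells in all 3 pairs of libraries with the same condition, and none of the 10 was 2-fold lower. Across all 4161 genes at a mean of 20 CPM or more, 6.06% were 2-fold higher in all 3 pairs and 3.41% were 2-fold lower. Folr2 reached that mean only through the tumor libraries, so its call as higher was fixed by the filter. Tmem119 was also below 20 CPM in the kidney control and 60 min libraries, at 16.1 and 15.3 CPM. The control, 15 min and 60 min ratios of Trem2 were 16.1 (14.0–18.6), 13.8 (9.74–20.4) and 13.5 (12.3–15.0). Those of Tmem119 were 10.7, 12.7 and 17.8, those of Apoe 5.59, 5.75 and 6.20, and those of Ms4a7 3.16, 2.57 and 4.30. Folr2 was 52.6-fold (22.4–163) higher in the control pair and 16.3-fold (11.8–23.3) higher at 60 min, and at least 17.8-fold higher at 15 min, set against 3 counts in the kidney library. Cx3cr1 passed 2-fold in the 15 min and 60 min pairs (3.03 and 2.57) but not in the control pair (1.61). The ratios of C1qa (1.21, 1.24 and 1.70), C1qb (0.766, 0.794 and 1.05), C1qc (0.919, 0.933 and 1.16) and Mrc1 (0.650, 0.982 and 0.925) stayed within 2-fold. The median log2 ratio of the 10 genes was 1.17, 1.48 and 1.73, beside 0.20, 0.18 and 0.16 over all genes. In the 15 min and 60 min pairs, 6 of 10 genes were past 2-fold.

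Genes of related roles were counted in the same cells, and the tissue difference of each list is given by its counts. Some of them, such as C4b, Cfp, Olfml3, Fabp5 and Fn1, reached the level for testing only through the tumor libraries. Of 21 other complement genes, 8 reached the level needed in each pair, and 3 of the 21 were 2-fold higher in the tumor in all pairs and none lower. Cfp, which encodes properdin, stood at 117, 105 and 102 CPM in the tumor against 15.4, 10.7 and 17.0 CPM in kidney. Itgam, a chain of complement receptor 3, stood at 77.0, 95.4 and 84.0 against 24.9, 30.3 and 25.5 CPM. C4b stood at 42.4, 64.0 and 84.4 against 5.06, 8.90 and 9.89 CPM, and its counts are uncertain because of its near-identical copy C4a. Of 12 genes typical of microglia, 6, 9 and 8 were tested in the control, 15 min and 60 min pairs. Of the 12, 4 were higher in all pairs and none lower. These included Fcrls (229, 284 and 540 against 9.72, 8.90 and 24.3 CPM), Olfml3 (70.8, 97.6 and 83.6 against 6.61, 7.12 and 5.80 CPM) and Gpr34. Of 12 genes of lipid-associated macrophages, 11 were tested in each pair, and 7 were higher and 1 lower in all pairs. The higher genes were Spp1, which encodes osteopontin (698, 859 and 794 against 27.4, 1.78 and 38.5 CPM), the fatty acid binding protein gene Fabp5 (287, 245 and 203 against 14.6, 3.56 and 19.5 CPM), the lysosomal genes Ctsd (1289, 2034 and 2063 against 110, 205 and 147 CPM), Ctsb, Lgmn and Cd63, and the cholesterol exporter gene Abca1. The lower gene was Lpl, lipoprotein lipase, at 82.2, 72.7 and 49.3 against 185, 345 and 158 CPM, named with Ctsb and Lgmn after the values were seen. Of 12 perivascular and tissue-resident genes, 6, 8 and 9 were tested in the control, 15 min and 60 min pairs. None was past 2-fold in all pairs, but Cbr2, Mertk and Cd209f were not tested in the control pair. Cbr2 and Mertk were higher at 15 min and 60 min, Cd209f and Clec10a at 60 min, and Pf4, a chemokine, was lower in the control pair (89.0 against 267 CPM), all named after the values were seen. Of 12 monocyte genes, 3, 5 and 3 were tested in the control, 15 min and 60 min pairs. Fn1 (fibronectin) and F13a1 (coagulation factor XIII A chain) were higher in all pairs, and 1 other gene was 2-fold lower at 15 min. F13a1 stood below 20 CPM in the kidney control and 15 min libraries, at 15.0 and 7.12 CPM.

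Markers of other cell types were also counted in the macrophage-gated cells. The summed level of 6 proximal tubule markers was 90.4, 198 and 132 CPM in kidney, and that of 7 epithelial markers was 92.7, 76.5 and 57.5 CPM in the tumor. The summed level of 4 monocyte markers was 151, 278 and 101 CPM in kidney and 109, 173 and 91.1 CPM in the tumor, highest at 15 min in both, with 3 of the 4 found in the kidney control and 15 min libraries and all 4 elsewhere. The 6 dendritic cell markers summed to 108, 81.9 and 63.5 CPM in kidney and 33.1, 11.2 and 17.4 CPM in the tumor. In kidney the proximal tubule and monocyte sums exceeded the levels of Trem2 and Tmem119, and at 15 min that of Mrc1. The part of these cells in the values above was not tested.

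Between dissociation conditions, 2 of the 10 genes passed 2-fold, both in the tumor at 15 min. Cx3cr1 was 2.24-fold (2.16–2.32) and Tmem119 2.21-fold (2.09–2.35) the control level. Of 4805 genes tested in this comparison, 3.16% were 2-fold or more higher and 5.22% lower. Folr2 was at 1.86 (1.66–2.08) and Mrc1 at 1.39 (1.28–1.52), while the remaining 6 genes lay between 1.06 and 1.27. A Cx3cr1 UMI was found in 84.9% of control, 90% of 15 min and 90.4% of 60 min cells, and in 34.1%, 58.8% and 43.3% after thinning to equal depth. A Tmem119 UMI was found in 65.7%, 84.2% and 76.7%, and in 17.1%, 35.1% and 22.8% after thinning. The thinned shares follow the order of the levels. Over all alternatives that gave a value, the ratio of Cx3cr1 ran from 2.15 to 2.36 and that of Tmem119 from 2.11 to 2.31.

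At 60 min no gene of the 10 passed 2-fold in the tumor, where 1.68% of 4533 genes were higher and 1.81% lower. Mrc1 came closest at 1.98 (1.85–2.13) and lay between 2.01 and 2.25 under 7 of the alternatives, past the line. It was followed by Tmem119 at 1.58 (1.49–1.67), Folr2 at 1.56 (1.40–1.73), Cx3cr1 at 1.42 (1.37–1.47) and Apoe at 1.32 (1.32–1.33). All 10 ratios were above 1, and the median log2 ratio was 0.35, beside -0.07 over all genes. At 15 min it was 0.34, beside 0.10. The 2 tumor comparisons share the control library. The 5 macrophage markers of the gate summed to 2287, 3572 and 2962 CPM in the tumor control, 15 min and 60 min libraries. Whether the 10 genes moved apart from these markers was not tested.

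In kidney none of the genes tested passed 2-fold. At 15 min 9 of the 10 reached the level for testing, with Tmem119 at 1.87 (1.04–3.19, from 17 UMIs, and 2.18 to 2.41 under 3 alternatives) and Mrc1 at 0.922 (0.727–1.16) as the extremes, and 2.57% of 4511 genes were higher and 3.99% lower. At 60 min 8 of the 10 were tested, with Mrc1 at 1.39 (1.28–1.52) and Trem2 at 1.37 (1.16–1.63) the highest and C1qb at 0.866 (0.852–0.879) the lowest, and 1.52% of 4347 genes were higher and 0.230% lower. Folr2 was below the level for testing in both comparisons and was 5.02-fold (1.97–16.4) higher at 60 min, from 37 against 5 UMIs. Tmem119 was below it at 60 min, with a ratio of 0.948 (0.709–1.27). Of the 8 genes tested in both tissues at 60 min, 5 had an interval below 1 in kidney and above 1 in the tumor (C1qa, C1qb, C1qc, Cx3cr1 and Ms4a7), beside 3.43% of 3850 genes, and 0 had the opposite pattern, beside 5.12%. Intervals are narrower for genes with more UMIs, so genes of high level meet this rule more easily.

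**Figure D3:**
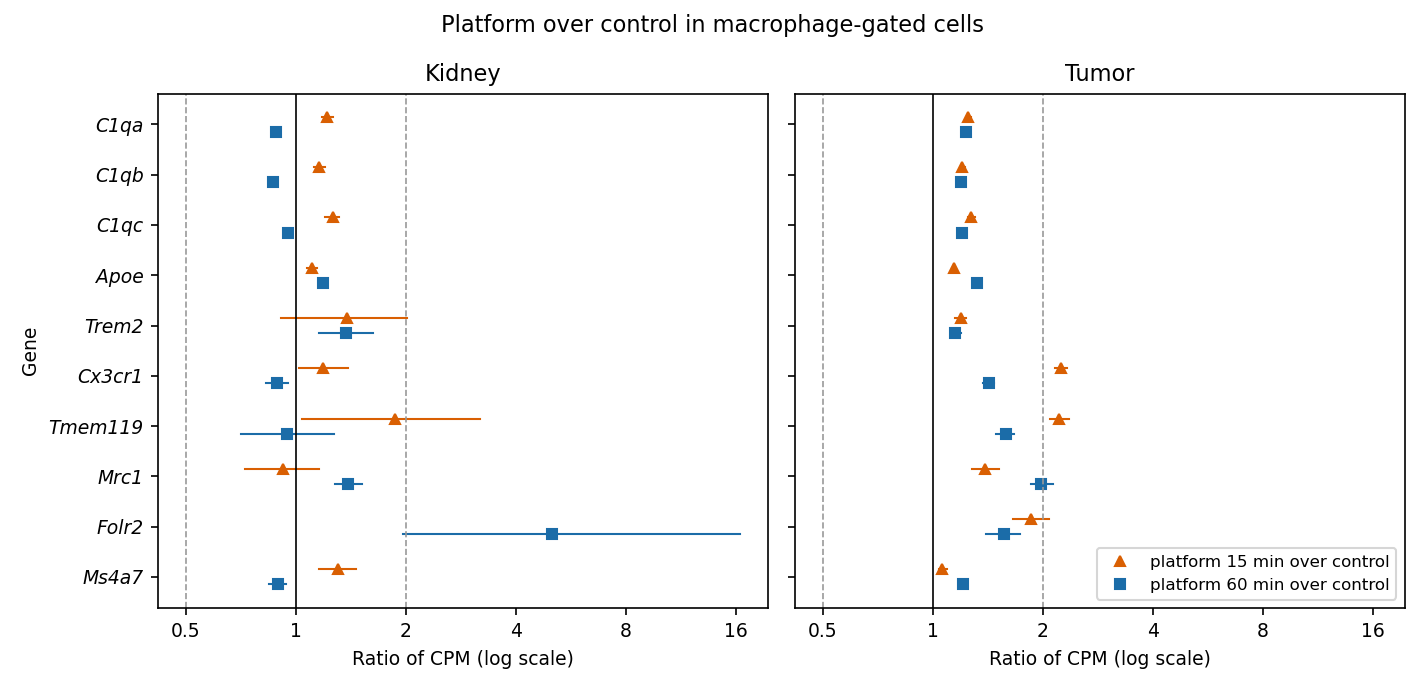
Ratio of each gene's level in macrophage-gated cells of the 15 min and 60 min platform libraries to the control of the same tissue, on a log axis with conditional binomial 95% bars and dashed lines at 2-fold. Tumor Cx3cr1 (2.24) and Tmem119 (2.21) at 15 min lie past the upper line, and tumor Mrc1 at 60 min (1.98) touches it. Kidney Folr2 at 60 min also lies past the upper line, from 37 against 5 UMIs, but was below the level for testing.

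Stress genes moved with the conditions in the same cells. The summed level of 16 dissociation stress genes in macrophage-gated cells was 13414, 28041 and 30007 CPM in the tumor control, 15 min and 60 min libraries, and 25839, 23418 and 46524 CPM in kidney. In the tumor 8 of the 16 were higher and 2 lower at 15 min, and 9 higher and 0 lower at 60 min, with 6 higher in both. These included the immediate early genes Egr1 (1655 and 778 against 212 CPM), Jun (3917 and 2609 against 602 CPM) and Fos (4587 and 2943 against 814 CPM), with Dusp1 and Atf3. In kidney 1 was higher and 5 lower at 15 min, and 7 higher and 1 lower at 60 min, with Fos higher (4087 and 5007 against 1786 CPM) and Gadd45b lower (48.1 and 192 against 478 CPM) in both. The microglial list had 2 of 9 tested genes 2-fold higher at each tumor time point, and P2ry13, a purinergic receptor gene, was higher at both (59.7 and 58.2 against 25.7 CPM). Whether the stress response has a part in the levels of Cx3cr1 and Tmem119 was not tested.

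Within the tumor macrophage-gated cells, cells with Folr2 held Mrc1 more often than cells without, and cells with Tmem119 held Mrc1 less often. Each cell was thinned to 1000 UMIs, and the share of cells with both genes was set beside the product of the single shares. Mrc1 was found in 65.5% (45.7–82.1), 56.8% (41.0–71.7) and 61.8% (49.2–73.3) of the 29, 44 and 68 cells with Folr2 in the control, 15 min and 60 min libraries. It was found in 5.18%, 5.45% and 13% of the cells without Folr2. The pair was thus seen together 8.89 (5.38–13.8), 7.05 (4.59–10.3) and 3.99 (2.89–5.36) times as often as the product of the shares. Tmem119 and Mrc1 were seen together 0.198 (0.0240–0.714), 0.407 (0.196–0.745) and 0.531 (0.345–0.781) times as often, and all 3 intervals lay below 1. Tmem119 and Folr2 gave 0.403 (0.0489–1.45), 0.324 (0.105–0.753) and 0.258 (0.0702–0.658). Cx3cr1 and Tmem119 gave 1.35 (1.05–1.71), 1.12 (0.981–1.26) and 1.26 (1.09–1.45). Cx3cr1 and Mrc1 gave 0.746 (0.419–1.22), 0.632 (0.415–0.919) and 1.01 (0.817–1.23), so that only the 15 min interval lay below 1. Trem2 gave 0.831, 0.990 and 0.847 with Mrc1 and 1.14, 1.05 and 1.07 with Tmem119, and all 6 intervals held 1. Without thinning, Folr2 with Mrc1 gave 2.95, 3.03 and 1.79 and Tmem119 with Mrc1 0.815, 0.813 and 0.904.

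In kidney the pairs with Folr2 could not be read, because Folr2 was found in 0%, 0% and 0.253% of thinned cells. Cx3cr1 and Mrc1 were seen together 1.54 (1.08–2.12), 0.833 (0.173–2.37) and 0.870 (0.615–1.19) times as often as the product of the shares. The cells of 1 library are not replicates, and these values are descriptions.

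**Figure D4:**
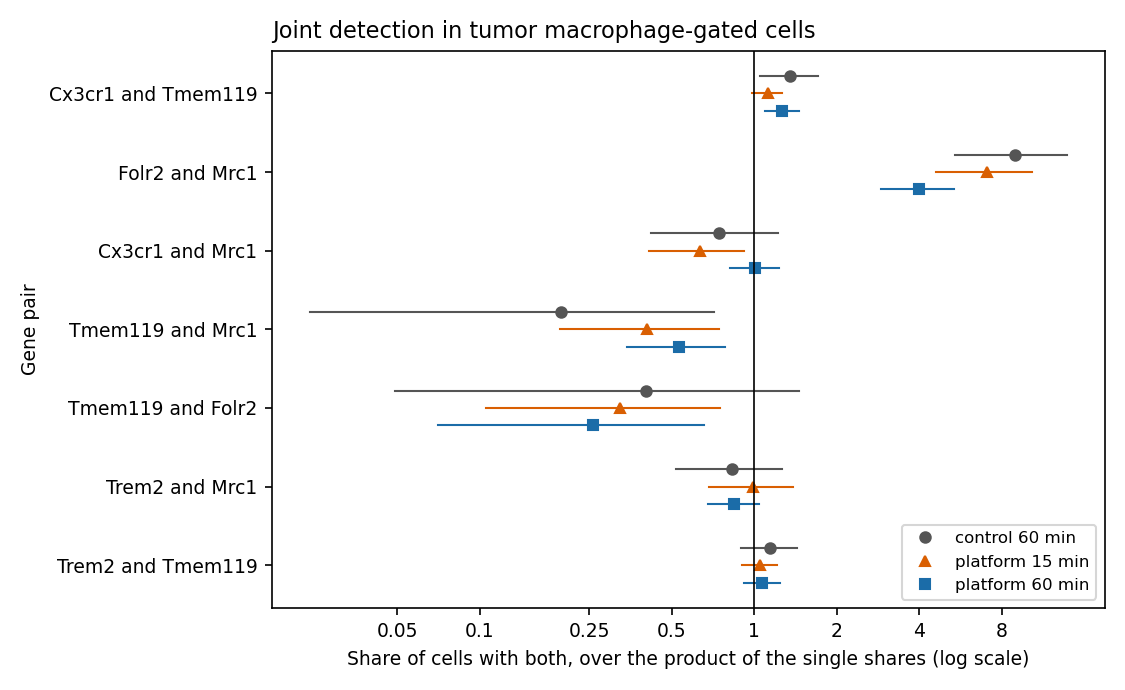
Share of cells with both genes divided by the product of the single shares, for 7 pairs of genes in macrophage-gated cells thinned to 1000 UMIs, on a log axis with 95% bars for counting error and a line at 1. In the tumor Folr2 with Mrc1 lies far above 1 (8.89, 7.05 and 3.99) and Tmem119 with Mrc1 below it (0.198, 0.407 and 0.531).

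Tumor macrophage-gated cells with a Folr2 UMI were set beside those without. There were 96, 106 and 252 such cells and 706, 766 and 1081 without, at median depths of 13106, 12467 and 12695 UMIs against 11991, 9292 and 11687 UMIs. Of the 12 perivascular and tissue-resident genes, 11 were tested in each library and 11, 10 and 10 were 2-fold or more higher in the cells with Folr2, beside 5.27%, 5.25% and 3.86% of all genes tested. None of them was 2-fold lower, beside 1.35%, 2.16% and 1.23%. Genes were tested by their mean level over cells with and without Folr2. Of the genes given below, Cd163, Lyve1, Cd209f, Cbr2 and F13a1 reached that level only through the cells with Folr2. Their calls as higher were thus fixed by the filter, and the counts are descriptions. The monocyte list had 3 of 5, 4 of 5 and 1 of 3 tested genes higher, the complement list 4 of 8, 4 of 8 and 4 of 9, the microglial list 1 of 8, 1 of 9 and 1 of 9, and the lipid-associated list 2 of 12, 0 of 11 and 1 of 11. Mrc1 was at 536, 793 and 656 CPM with Folr2 and at 40.8, 36.9 and 93.5 CPM without. Cd163, a scavenger receptor for hemoglobin, was at 114, 59.6 and 67.5 CPM against 0.118, 0 and 2.04 CPM. Lyve1, a hyaluronan receptor, was at 97.9, 202 and 60.6 CPM against 0.118, 0 and 0.392 CPM. Cd209f, a lectin gene, was at 171, 248 and 285 CPM against 0.706, 0.404 and 5.96 CPM. Cbr2, of the perivascular and tissue-resident list, was at 280, 336 and 250 CPM against 2.12, 2.15 and 7.37 CPM. Of the monocyte list, F13a1 was at 522, 660 and 360 CPM against 10.6, 10.4 and 12.9 CPM. Fcrls, of the microglial list, was at 745, 876 and 1294 CPM against 153, 186 and 350 CPM. In each of these genes every library was higher in the cells with Folr2. Fn1 and the chemokine receptor gene Ccr2 were higher with Folr2 in the control and 15 min libraries and not at 60 min, at 884, 460 and 85.6 against 111, 106 and 99.3 CPM for Fn1 and at 164, 272 and 50.3 against 64.6, 133 and 82.8 CPM for Ccr2. The genes named here from the lists were chosen after their values were seen. Tmem119 went the other way, at 130, 193 and 196 CPM with Folr2 and 179, 415 and 292 CPM without. C1qa was at 6645, 8678 and 9364 CPM with Folr2 and at 6156, 7635 and 7256 CPM without, ratios of 1.08, 1.14 and 1.29. The ratios of C1qb were 1.04, 1.17 and 1.27 and those of C1qc 1.04, 1.12 and 1.32.

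The tumor macrophage-gated cells fell mainly into 3 graph clusters, which were made without the 10 genes. They are named here by number. Cluster 3 held 102, 656 and 531 of the macrophage-gated cells in the control, 15 min and 60 min libraries, cluster 6 held 549, 29 and 476, and cluster 8 held 83, 75 and 231. The 10 leading genes of cluster 8 were Lyz2, Ccl8, Ccl7, Retnla, C1qa, Ccl6, Fcer1g, C1qc, C1qb and Tyrobp, and all 4 monocyte markers were detected in it. With 1 library per condition, a cluster mostly from 1 library may reflect that library and not a kind of cell. Tmem119 was highest in cluster 3, at 397, 449 and 407 CPM, lower in cluster 6, at 153, 144 and 183 CPM, and lowest in cluster 8, at 20.5, 56.9 and 109 CPM. Cx3cr1 was also highest in cluster 3, at 838, 1145 and 789 CPM, against 406, 360 and 443 CPM in cluster 6 and 275, 427 and 673 CPM in cluster 8, so that clusters 6 and 8 changed order between libraries. Mrc1 was highest in cluster 8, at 696, 1111 and 894 CPM in cluster 8 against 19.4 to 76.5 CPM in clusters 3 and 6. Folr2 was at 366, 779 and 398 CPM in cluster 8 and at 4.27 to 15.3 CPM in clusters 3 and 6.

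Within clusters 3 and 6 the 15 min ratios of Cx3cr1 and Tmem119 were below those over all macrophage-gated cells. In cluster 3 the 15 min to control ratio was 1.37 for Cx3cr1 and 1.13 for Tmem119, and in cluster 6, with 29 cells at 15 min, it was 0.887 and 0.941. In cluster 8, where levels of Tmem119 were low, it was 1.55 for Cx3cr1 and 2.78 for Tmem119, the latter above the 2.21 over all macrophage-gated cells. Smaller clusters differed. In cluster 19, with 35 control and 42 15 min cells, the ratio was 2.03 for Cx3cr1 and 1.67 for Tmem119. In cluster 11, with 32 and 68 cells, it was 1.28 and 1.03. The 60 min difference of Mrc1 remained within clusters 3 and 6, at 3.13 and 2.24, and was 1.28 in cluster 8. C1qa in cluster 8 was at 3857, 6466 and 8058 CPM, a wider spread over the conditions than in cluster 3 (8301, 8109 and 8360 CPM) or cluster 6 (6197, 6136 and 6683 CPM).

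**Figure D5:**
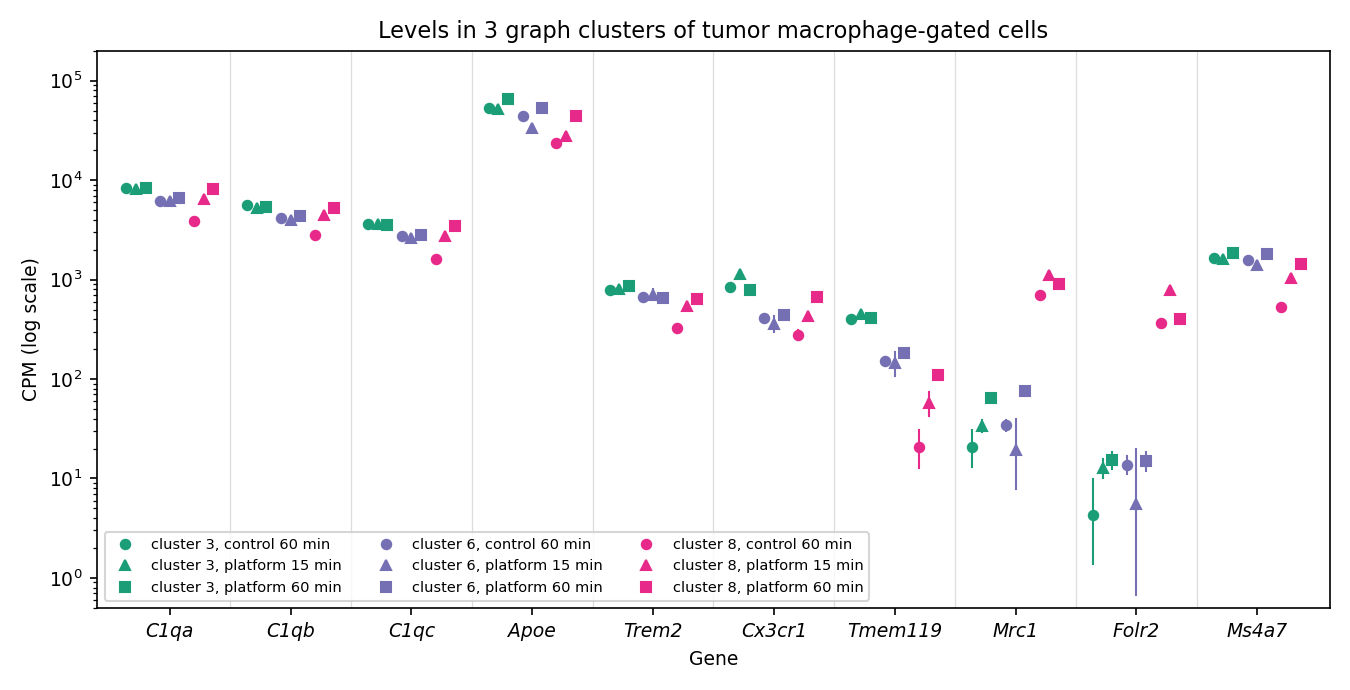
Level of each gene in macrophage-gated cells of tumor graph clusters 3, 6 and 8, in CPM on a log axis, by library, with exact 95% Poisson bars. Tmem119 falls from cluster 3 to cluster 6 to cluster 8 in each library, while Mrc1 and Folr2 are highest in cluster 8.

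Across the 39 combinations of cell class and library with at least 50 cells, the genes whose log2(CPM + 1) levels followed each of the 10 most closely were named from 7664 candidates, leaving out the 10 genes and the gate's markers. C3ar1, the receptor for complement fragment C3a, was closest to all 3 C1q genes, with Pearson correlations of 0.954, 0.95 and 0.940 for C1qa, C1qb and C1qc. Ccl12, a chemokine, was closest to Mrc1 (0.946), Ms4a7 (0.925) and Cx3cr1 (0.870). F13a1 was closest to Trem2 (0.937), Cd209f to Folr2 (0.974), Ccl8 to Tmem119 (0.903) and the transporter gene Abcc3 to Apoe (0.889). Among the 10 genes themselves, C1qa and C1qb reached 0.983 and Tmem119 and Mrc1 had the lowest value, 0.641. These points share libraries and cell classes, the contrast of macrophage-gated cells with all other classes sets much of each value, and the correlations are descriptions.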

How the data were processed

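Single-cell UMI counts were analysed for 6 libraries (10x Genomics v3 chemistry), 3 of kidney and 3 of MMTV-PyMT mammary tumor. The authors made the deposited counts, whole UMI counts per gene and cell, with Cell Ranger 3.1.0 on mm10 and pooled each tissue's libraries by aggregation, in which reads are subsampled until depth is even. Part of the depth difference between libraries is therefore gone. The deposited aggregation lists gave each barcode suffix its library. Cells were kept at 200 to 3000 genes and at most 50% mitochondrial UMIs in kidney, and at 200 to 4000 genes and at most 25% in the tumor, the study's limits. No doublet caller was run. The gene limit and the removal of cells in more than 1 gate (1.44% to 5.46% of kept cells) stood in for it. Of the kept cells, 78.3% to 95.3% were assigned to 1 of 12 kidney or 13 tumor classes by at least 3 marker genes of the class. A few genes used or counted in the lists are not reported here by name.

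UMIs were summed per class and library and written as CPM. A ratio was called past 2-fold among genes at a mean of 20 CPM or more in the libraries compared. With 1 library per condition no test was made, and intervals at 95% cover counting error only. Where a count was 0, 3 counts were taken as its limit. Joint detection used cells thinned to 1000 UMIs, which left out 0 to 3 macrophage-gated cells per library. Graph clusters were made without the 10 genes from 2000 variable genes, 20 principal components and 20 neighbours by the Leiden method (leidenalg 0.10.2) at a resolution of 0.5, and named by the same markers. Named genes were the 10 genes, up to 5 per gene list past 2-fold in every comparison of a kind, and the 3 closest to each gene by correlation. Calculations used Python 3.11.15, numpy 2.4.6, scipy 1.17.1 and pandas 2.3.3, and were tested on simulated counts. The genes and lists were chosen with earlier results of these data known, and the rule of 3 markers was set after the data were seen. Alternatives covered the gate, filters, doublet handling, depth, denominator, weighting of cells, fold and level limits. The tissues differ in strain, sex and age, and libraries may differ in ways the conditions do not explain.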

Additional observations from a re-analysis of the deposited data

Results flagged for a closer look

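The 60 min platform libraries moved in opposite directions in the 2 tissues for 5 of the 10 genes, relative to the control of the same tissue, in macrophage-gated cells, with intervals on opposite sides of 1. Over all 3850 genes tested in both tissues, 3.43% were below the control in kidney and above it in the tumor by this rule. C1qa was at 0.881 (0.867–0.895) of the control in kidney and 1.23 (1.22–1.25) in the tumor, so that the tumor ratio was 1.40 times the kidney ratio. For C1qb the ratios were 0.866 (0.852–0.879) and 1.19 (1.17–1.20), 1.37 times apart. For C1qc they were 0.949 (0.929–0.969) and 1.20 (1.18–1.22), 1.26 times apart. Cx3cr1 was at 0.888 (0.829–0.952) in kidney and 1.42 (1.37–1.47) in the tumor, 1.60 times apart, and Ms4a7 was at 0.892 (0.844–0.942) and 1.21 (1.19–1.24), 1.36 times apart. Tmem119 had ratios of 0.948 (0.709–1.27) in kidney and 1.58 (1.49–1.67) in the tumor, and its kidney interval held 1. In tumor cluster 3 the 60 min ratios were 1.01, 0.965, 0.986, 0.942 and 1.14 for C1qa, C1qb, C1qc, Cx3cr1 and Ms4a7. In cluster 6 they were 1.08, 1.05, 1.03, 1.09 and 1.15 in that order. In cluster 8 they were 2.09, 1.88, 2.13, 2.45 and 2.68. The clusters held different shares of the cells in each library, and their part in the tumor ratios was not tested. Each direction rests on 1 library against 1 library, the intervals cover counting error only, and the difference between the tissues was not tested.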

How the results depend on the processing

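No ratio past 2-fold changed direction under the alternatives run, but the class with the highest level did change for 3 genes. With graph clusters, tumor Mrc1 and Folr2 and kidney Tmem119 in 2 libraries were higher in another cluster class than in that named macrophage. No gene of the 10 passed 2-fold in the tumor at 60 min, but the count was 1, Mrc1, with 4 markers required, with 2 required, with cells of a second class kept, with no upper limits on cells, with the mean over cells, after thinning to 1000 UMIs and with graph clusters, and 3 at 1.5-fold. In kidney at 15 min the count of 0 became 1, Tmem119, with 2 markers required, after thinning, with graph clusters and at 1.5-fold. The count of genes at least 2-fold higher in tumor than in kidney in all 3 pairs was 5. It was 4 with graph clusters and at a mean of 50 CPM, and 6 at 1.5-fold. With graph clusters 1 gene, Mrc1, was 2-fold lower in tumor than in kidney in all 3 pairs, against 0 with gates. There the cluster in which Mrc1 was highest was given another name by its marker score. In joint detection, Folr2 with Mrc1 in the tumor control fell to 4.93 after thinning to 2000 UMIs and was 2.95 without thinning, with 3.03 at 15 min and 1.79 at 60 min. Tmem119 with Mrc1 was 0.815, 0.813 and 0.904 without thinning, 0.806 at 15 min with 2 markers required and 0 in the control with no upper limits on cells, and Cx3cr1 with Tmem119 at 60 min was 1.07 without thinning. The causes of these shifts in joint detection were not tested. Leaving out mitochondrial UMIs from the total and removing cells of shared barcodes (added after the data were seen) moved none of the counts. After thinning, kidney control Tmem119 was at 16.6 CPM in macrophage-gated and 17.1 CPM in endothelial cells, so that the order turned there as well. No paired analysis was possible because each group has 1 library. The depth limits Folr2 and Tmem119 in kidney most, at 0 to 37 and 17 to 116 UMIs.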

Other observations

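Cells that passed both the macrophage and the monocyte gate were left out of every comparison, and the tumor libraries (control, then 15 min, then 60 min) held 74, 46 and 75 of them, with median depths of 11040, 10367 and 9912 UMIs. Their C1qa level was 808, 718 and 178 CPM, with a UMI in 32.4%, 37.0% and 17.3% of the cells, below the 6219, 7784 and 7679 CPM of the macrophage-gated cells. Apoe was at 11132, 10788 and 9858 CPM with a UMI in 97.8% to 100% of the cells, and Trem2 at 260, 210 and 178 CPM. Mrc1 was at 163, 143 and 125 CPM, within the range of the macrophage-gated cells in the same tissue. Ms4a7 was at 392, 407 and 322 CPM and Tmem119 at 23.5, 60.6 and 46.0 CPM, both below the macrophage-gated cells of every tumor library.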
